A study of Mus musculus with 8 samples.

Results

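Planar cell polarity (PCP) genes were examined as 10 genes of 4 families, namely the Dishevelled genes Dvl1, Dvl2 and Dvl3, the Van Gogh-like genes Vangl1 and Vangl2, the atypical cadherin genes Celsr1, Celsr2 and Celsr3, and Prickle1 and Prickle2. They were chosen by gene name. All 10 were found among the 55401 genes listed, not all of which had a count in any line. All 10 were also among the 15461 genes that passed the filter on low counts. The cells were 8 lines of mouse embryonic fibroblasts (MEFs) of the strain B6C3F1, each grown from a different embryo at E14.5 after removal of the head and organs, with 1 RNA library per line. In 4 lines (SLMAP3-/-) exon 3 of Slmap, flanked by loxP sites, had been deleted by a Cre under the CMV promoter, a driver active throughout the embryo. The other 4 lines were WT, and both genotypes had been immortalized with SV40 large T antigen, an oncoprotein that blocks p53 and the retinoblastoma proteins.

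PCP is the alignment of cells within the plane of a tissue. In the core pathway the seven-pass cadherins of the Celsr family join neighbouring cells, a Frizzled receptor recruits Dishevelled to one side of the cell, and Vangl and Prickle gather on the opposite side. Dishevelled is the cytoplasmic hub of this pathway and also relays the Wnt signal to beta-catenin. The loss of Vangl2 or Celsr1, or of several Dishevelled genes together, leaves the neural tube of the mouse open. The study reported less DVL3 protein without SLMAP3 in lungs, brain, skeleton and immortalized MEFs, but not in primary MEFs. By RT-qPCR it found no change of the DVL3 transcripts. The comparison of the genotypes here covers RNA only and asks whether transcripts of this family and of its partners differed when SLMAP3 was missing.

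The total estimated count was between 49879059 and 63322486 per line. Slmap itself had 44.3, 32.7, 36.3 and 39.7 CPM (the count of a gene relative to its library's total, with totals scaled between lines by the TMM method) in SLMAP3-/- replicates 1 to 4 and 124, 139, 143 and 141 CPM in WT replicates 1 to 4. The genotypes did not overlap, and the change of Slmap was -1.84 ± 0.11 (SE) on the log2 scale (quasi-likelihood test of edgeR, adjusted p = 0.00119). The estimated count sums all exons and does not single out exon 3. Of 9 fibroblast markers, 7 exceeded 1 CPM in every line, with Col1a1 at 4508 to 7010 CPM, while Dcn and Lum were as low as 0.323 and 0.113 CPM. The summed level of 6 epithelial markers was 0.848 to 1.57 CPM in SLMAP3-/- and 0.581 to 1.72 CPM in WT lines, with Krt5, Krt14, Esrp1 and Grhl2 each at 0.0801 CPM or less. For 5 endothelial markers it was 16.6 to 40.5 and 9.47 to 27.5 CPM, for 4 blood markers 1.94 to 4.88 and 1.95 to 2.86 CPM, and for 6 neural markers 5.61 to 15.99 and 4.16 to 14.7 CPM. The endothelial sum came mainly from Kdr (7.87 to 28.4 CPM) and Tek (1.55 to 12.2 CPM), the blood sum from Cd68 (1.91 to 4.70 CPM) and the neural sum from Sox2 (3.41 to 15.4 CPM), while Pecam1, Cdh5 and Ptprc stayed at or below 0.227 CPM in each line. Tek had 8.55 ± 4.75 CPM (SD, n = 4) in SLMAP3-/- and 3.22 ± 1.40 CPM (SD, n = 4) in WT lines, with overlap of the genotypes (unadjusted p = 0.0320, adjusted p = 1.00, edgeR), and its part in other results was not tested. No marker was at 0 in all lines. Y-linked genes had a mean log2 CPM of 5.52 in SLMAP3-/- replicate 2 and of 5.53 in WT replicate 3 and were low in the other 6 lines, and the labels give no sex. In such cultures fewer cells of a type and less RNA per cell cannot be told apart.

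For none of the 10 genes did the difference between the genotypes pass the test. With edgeR, 0 members reached an adjusted p under 0.05, where 1 of the 15461 tested genes (0.00647%), Slmap, was called. No member had an unadjusted p under 0.05 either, against 1.81% of all tested genes, and for no member did the lines of the 2 genotypes fail to overlap, against 1.25% of all tested genes. DESeq2 and limma-voom also gave 0 members at an adjusted and 0 at an unadjusted p under 0.05. Among all genes DESeq2 gave 11 and 551 such genes, and limma-voom 1 and 269. The log2 fold change was positive for 8 members and negative for Celsr2 and Prickle2, with a median of 0.065 over the 10 genes and of -0.0014 over all tested genes.

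**Figure D1:**
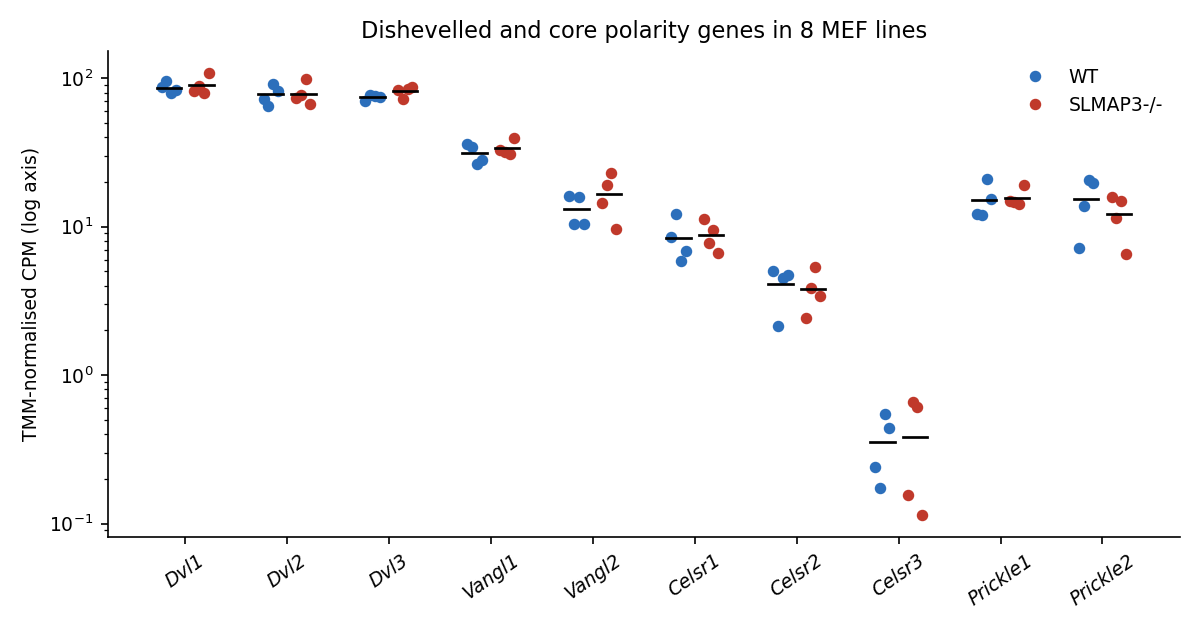
TMM-normalised CPM (vertical log axis) of the 10 genes in each of 4 WT lines (blue) and 4 SLMAP3-/- lines (red), with black bars at the mean of each genotype. The genotypes overlap for each gene, and levels fall from about 80 CPM for the Dishevelled genes to below 1 CPM for Celsr3.

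Dishevelled proteins share a DIX domain, through which they polymerize, a PDZ domain and a DEP domain, and the 3 genes code for 695, 736 and 718 residues in GENCODE M21. Since reads that match several transcripts are divided between them, the longest stretches of identical bases between the paralogs were sought. They are shown because they mark how far reads of one Dishevelled gene could be taken for another. In the transcripts with the longest reading frame, Dvl1 and Dvl2 shared at most 21 bases, Dvl1 and Dvl3 29 and Dvl2 and Dvl3 29, and over all annotated transcripts the longest stretch, between Dvl1 and Dvl3, had 33 bases. Each stretch lies in coding sequence of GRCm38 on the plus strand. Below, capitals mark the shared bases and lower case the 15 bases on either side.
Dvl1, exon 13, codon 449, chr4:155856367-155856387: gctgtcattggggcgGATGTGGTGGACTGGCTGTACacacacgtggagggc
Dvl2, exon 13, codon 457, chr11:70008286-70008306: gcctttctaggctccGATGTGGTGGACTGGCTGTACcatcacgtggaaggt
Dvl1, exons 7 and 8, codon 248, chr4:155854773-155854886: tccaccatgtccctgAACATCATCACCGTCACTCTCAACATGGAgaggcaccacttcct
Dvl3, exons 7 and 8, codon 246, chr16:20524561-20525639: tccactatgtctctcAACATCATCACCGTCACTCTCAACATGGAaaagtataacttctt
Dvl2, exons 1 and 2, codon 63, chr11:70001019-70004825: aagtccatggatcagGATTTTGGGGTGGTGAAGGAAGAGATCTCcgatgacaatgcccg
Dvl3, exons 1 and 2, codon 52, chr16:20517348-20522276: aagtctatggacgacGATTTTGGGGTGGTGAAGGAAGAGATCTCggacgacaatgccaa
The stretch of Dvl1 and Dvl2 codes for part of the DEP domain, that of Dvl1 and Dvl3 for part of the PDZ domain and that of Dvl2 and Dvl3 for part of the DIX domain. The last 2 pairs of stretches each cross a junction between exons of the same number in both paralogs.

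Dvl3 (ENSMUSG00000003233.12, chromosome 16 from 20516982 to 20534010, plus strand) had 82.7, 72.6, 84.1 and 87.7 CPM in SLMAP3-/- replicates 1 to 4 and 69.8, 76.5, 76.2 and 74.7 CPM in WT replicates 1 to 4. The lines of 3 of the 4 SLMAP3-/- embryos lay above every WT line, and SLMAP3-/- replicate 2 lay within the WT range. The means were 81.8 ± 6.46 CPM (SD, n = 4) and 74.3 ± 3.11 CPM (SD, n = 4), a log2 fold change of 0.14 ± 0.081 (SE) (adjusted p = 1.00, edgeR). The 95% interval of this difference ran from 0.969-fold to 1.25-fold of WT. A two-sided exact permutation test gave p = 0.114, and 4 lines against 4 cannot give less than 0.0286. Without SLMAP3-/- replicate 2 the log2 fold change was 0.20 with an unadjusted p of 0.0399 in edgeR's test. Since only that line lay within the WT range, leaving it out separates the genotypes by construction. This p was the lowest of 16 alternatives, and in the same fit 254 of 15773 genes had an unadjusted p under 0.05. The lowest adjusted p of Dvl3 in any alternative was 0.786, from edgeR without a filter on low counts. Dvl3 also varied least between lines of the same genotype among the members. Its pooled standard deviation was 0.094 on the log2 scale, lower than in all but 5.36% of the tested genes. The mean CPM of Dvl3 was above that of 79.1% of the tested genes, and its spread was not compared with genes of like level.

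Dvl1 (ENSMUSG00000029071.16, chromosome 4 from 155847402 to 155859303, plus strand) had 81.4, 88.5, 79.4 and 109 CPM in SLMAP3-/- lines and 87.1, 96.2, 78.8 and 83.6 CPM in WT lines. The highest and the lowest of the 8 lines were thus SLMAP3-/- replicate 4 and WT replicate 3, and the other SLMAP3-/- lines lay within the WT range. Its log2 fold change was 0.050 ± 0.12 (SE), with a 95% interval from 0.859-fold to 1.25-fold. Dvl2 (ENSMUSG00000020888.16, chromosome 11 from 70000595 to 70012301, plus strand) had 73.0, 76.5, 98.2 and 67.1 CPM in SLMAP3-/- lines and 72.2, 64.8, 91.9 and 82.5 CPM in WT lines. SLMAP3-/- replicate 3 was highest and WT replicate 2 lowest, and the log2 fold change of Dvl2 was 0.015 ± 0.15 (SE), with an interval from 0.799-fold to 1.28-fold. The exact permutation p was 0.743 for Dvl1 and 0.943 for Dvl2. Acadvl, on the opposite strand, covers 1151 of the 5037 exonic bases of the Dvl2 transcript (22.9%) and had 66.3 to 86.6 CPM. The libraries were stranded, but whether the counting used the strand is not given in the sources used here, so the level of Dvl2 is less certain than that of Dvl1, where Tas1r3 covers 1.07% of the exonic bases, and of Dvl3, where no exon is covered.

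**Figure D2:**
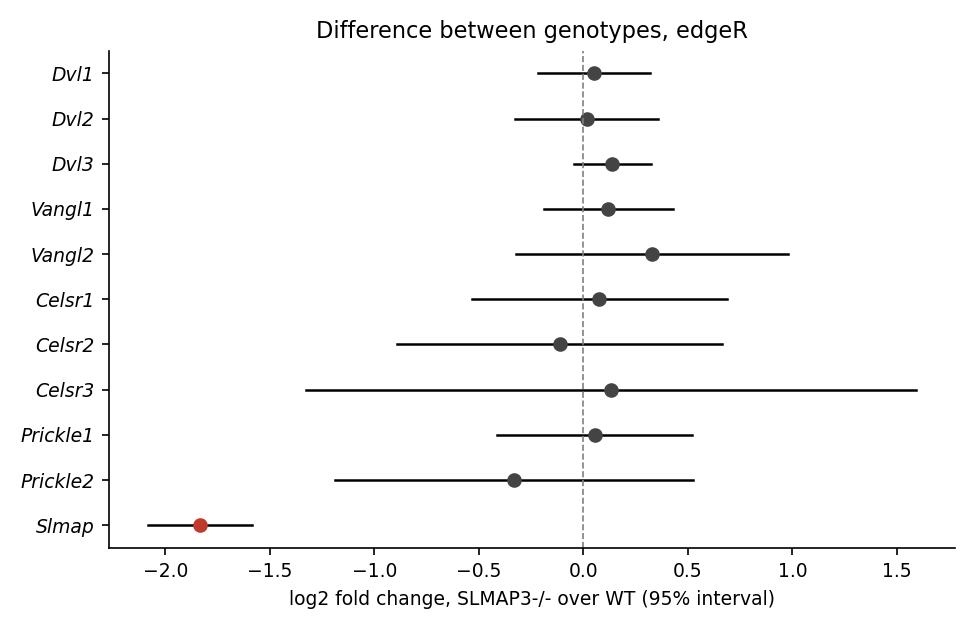
Log2 fold change of SLMAP3-/- over WT for each gene from edgeR (points) with its 95% interval (lines), for the 10 genes (dark grey) and Slmap (red). Every interval of the 10 genes spans 0, that of Dvl3 from -0.05 to 0.32, while Slmap lies at -1.84.

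The Dishevelled genes were the most abundant members. Levels were compared between genes as CPM per kilobase of the transcript with the longest reading frame. Dvl1 had 26.2 ± 3.01 CPM per kilobase (SD, n = 8 lines), Dvl3 19.6 ± 1.55 and Dvl2 15.5 ± 2.35. Dvl1 exceeded Dvl3 in 8 of 8 lines, by 1.33-fold on average, and Dvl3 exceeded Dvl2 in 8 of 8 lines, by 1.27-fold (two-sided exact sign-flip permutation test over lines, p = 0.00781 for each, the smallest that 8 lines allow, and 0.0100 after Benjamini-Hochberg adjustment over 9 pairs of neighbours in the order). Both differences depend on which length is used. With the mean length of the protein-coding transcripts the log2 ratio of Dvl1 to Dvl3 was 0.11 (adjusted p = 0.117 from the permutation test) in place of 0.41, and with all exons merged the log2 ratio of Dvl3 to Dvl2 was -0.019 (adjusted p = 0.820) in place of 0.34.

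As a share of the Dishevelled sum, Dvl1 made up 42.4% ± 4.69 (SD, n = 4) in SLMAP3-/- and 43.0% ± 3.78 (SD, n = 4) in WT lines. The share of Dvl2 was 24.9% ± 4.37 (SD, n = 4) and 25.8% ± 3.74 (SD, n = 4), and that of Dvl3 was 32.7% ± 1.80 (SD, n = 4) and 31.2% ± 0.579 (SD, n = 4). The mean shares of the 2 genotypes differed by less than 2 percentage points. The largest difference, 1.55 points, was that of Dvl3 (two-sided exact permutation p = 0.143, or 0.914 adjusted over 8 shares). Within a genotype the shares of Dvl1 and Dvl2 had SDs of 3.74 to 4.69 points, so a larger difference in them could go unseen. Leaving out 1 line took the difference past 2 points for Dvl1 and for Dvl2. Over single lines the share of Dvl1 ranged from 36.8% to 47.8%, that of Dvl2 from 19.7% to 30.3% and that of Dvl3 from 30.3% to 34.9%.

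**Figure D3:**
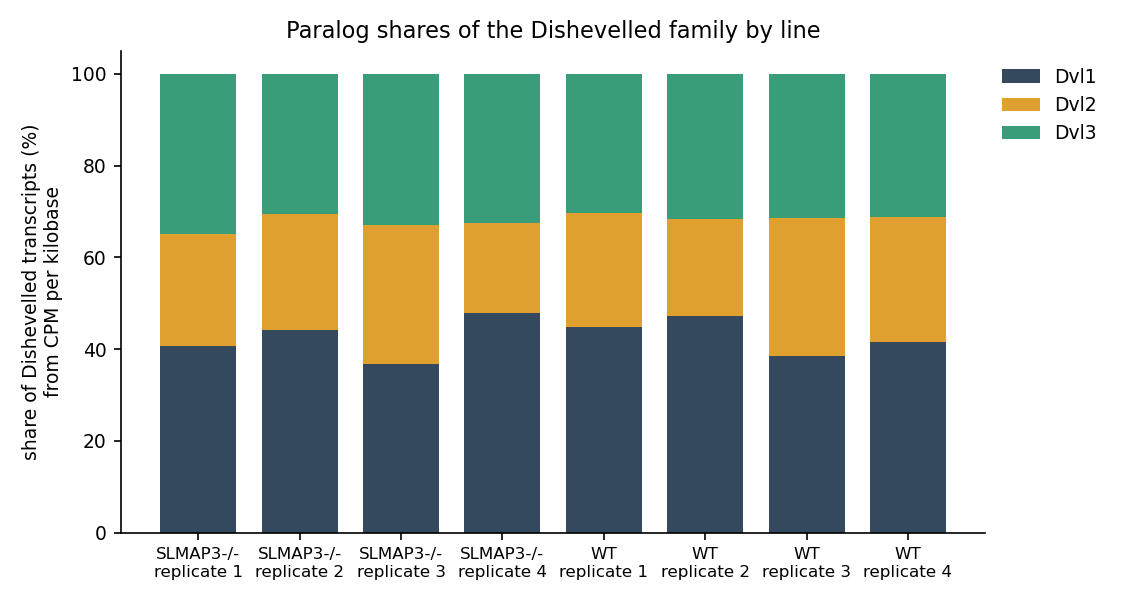
Share of Dvl1, Dvl2 and Dvl3 (%) in the summed CPM per kilobase of the Dishevelled family, as stacked bars for each of the 8 lines. The Dvl3 segment keeps between 30.3% and 34.9%. Since the shares of a line sum to the whole, those of Dvl1 and Dvl2 then have to mirror each other, as in SLMAP3-/- replicates 3 and 4.

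Dvl1 and Dvl2 tended to vary in opposite directions between lines, as did some pairs of different families, and no pair passed adjustment. Over the 8 lines the Pearson correlation of their log2 CPM was -0.78 (permutation p = 0.0216) and Spearman's rho -0.83 (permutation p = 0.0154). It was -0.73 without the 2 lines farthest from the median of Dvl1, and -0.73 in the 6 lines with low levels of Y-linked genes. The summed CPM of all 3 Dishevelled genes was 250 ± 14.6 CPM (SD, n = 4) in SLMAP3-/- and 239 ± 7.45 CPM (SD, n = 4) in WT lines. Among the 45 pairs of members, the pair with the lowest p was Vangl1 and Prickle2, with r = -0.90 (permutation p = 0.00305), rho = -0.88 (permutation p = 0.00724), r = -0.80 without the 2 lines farthest from the median of Vangl1, and r = -0.91 in the 6 lines with low Y-linked levels. An unadjusted permutation p of r under 0.05 was found for 8 pairs and an adjusted one for 0, the lowest adjusted p being 0.137 for Vangl1 with Prickle2 and 0.204 for Dvl1 with Dvl2. The share of such pairs among all tested genes was not computed, so the count of 8 is not read as a trait of the members. Other pairs under the unadjusted threshold joined Dvl1 or Dvl2 to other families. These were Dvl1 with Vangl1 (r = 0.78) and Prickle2 (r = -0.72), and Dvl2 with Celsr3 (r = 0.81) and Vangl1 (r = -0.75). The rest were Celsr1 with Prickle1 (r = -0.78) and Vangl1 with Celsr3 (r = -0.76). The opposite variation was thus not particular to the Dishevelled paralogs. All of these values share the scaling of the libraries.

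**Figure D4:**
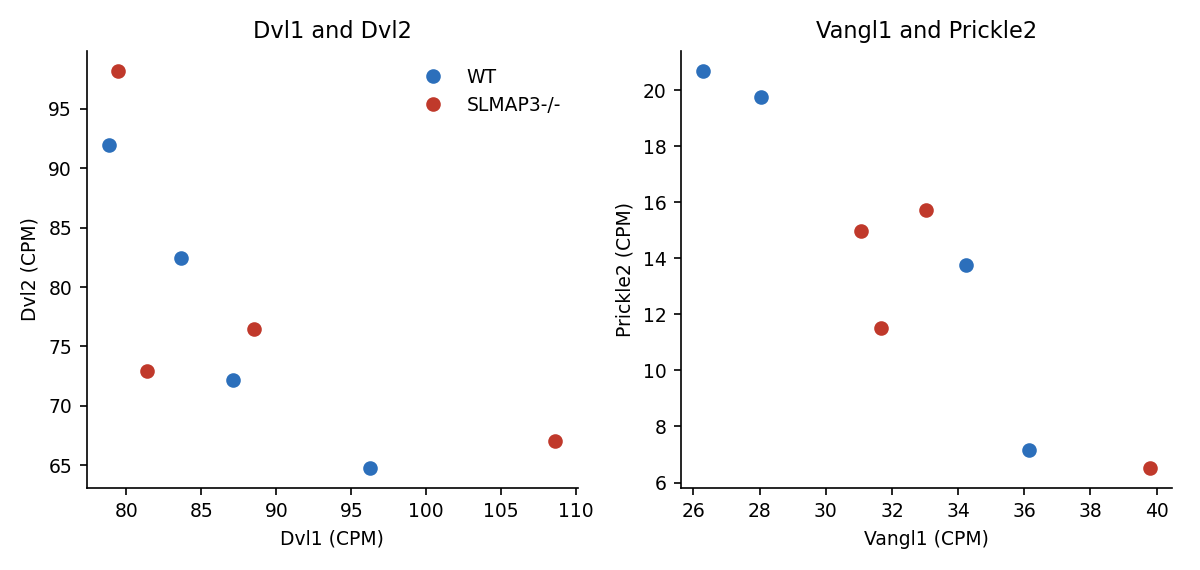
CPM of Dvl1 against Dvl2 (left) and of Vangl1 against Prickle2 (right), with 1 point per line, WT in blue and SLMAP3-/- in red; the axes do not start at 0. Lines with more Dvl1 tend to have less Dvl2 and lines with more Vangl1 less Prickle2, with points of both genotypes along each trend. Neither correlation passed adjustment over the pairs of members.

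By the same measure of likeness, Pearson's correlation of log2 CPM over the 8 lines, the genes closest to Dvl1 were Atg4d (0.98), Parpbp (0.98) and Rassf1 (0.97). Those closest to Dvl2 were Ucp2 (0.99), Mpzl1 (0.98) and Nudt16 (0.98), and those closest to Dvl3 were Nsmf (0.97), Sh3bp1 (0.96) and Cep89 (0.96). A correlation above 0.9 was reached by 69 genes for Dvl1, 146 for Dvl2 and 14 for Dvl3. These genes were taken as the highest of all tested genes over 8 points, which is a description of these lines.

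Vangl1 and Vangl2 encode 4-pass membrane proteins that bind Prickle. Vangl1 (ENSMUSG00000027860.15, chromosome 3 from 102153583 to 102204693, minus strand) had 33.0, 31.7, 31.1 and 39.8 CPM in SLMAP3-/- lines and 36.1, 34.2, 26.3 and 28.0 CPM in WT lines. Vangl2 (ENSMUSG00000026556.15, chromosome 1 from 172000960 to 172028444, minus strand) had 14.4, 19.2, 23.0 and 9.59 CPM and 16.01, 10.5, 15.9 and 10.4 CPM, respectively. SLMAP3-/- replicate 4 was the highest of the 8 lines for Vangl1 and the lowest for Vangl2, and SLMAP3-/- replicate 3 was the highest for Vangl2. The log2 fold change was 0.12 ± 0.14 (SE) for Vangl1 and 0.33 ± 0.29 (SE) for Vangl2 (adjusted p = 1.00 for both, edgeR), and neither difference exceeded the variation within a genotype. For Vangl2 the 95% interval ran from 0.799-fold to 1.97-fold. The log2 fold change of Vangl2 was 0.12 without SLMAP3-/- replicate 3 and 0.52 ± 0.24 (SE) without SLMAP3-/- replicate 4 (unadjusted p = 0.0641, edgeR).

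Which Vangl gene was more abundant could not be settled from gene totals. Per kilobase of the transcript with the longest reading frame, which has 6531 bases for Vangl1 and 2349 for Vangl2, Vangl2 had 6.32 ± 2.00 CPM per kilobase (SD, n = 8 lines) and Vangl1 4.98 ± 0.662. Vangl2 was the higher in 6 of 8 lines (exact sign-flip permutation p = 0.172), and these neighbours in the order did not differ beyond their spread. Without SLMAP3-/- replicate 4 the adjusted p was 0.0469, for a log2 ratio of 0.42 in place of 0.29. With the mean length of the protein-coding transcripts, 2205 and 3232 bases, the share of Vangl1 in the pair was 76.3% in place of 45.1%, and with all exons merged it was 68.4%. The share of Vangl1 was 43.8% ± 11.9 (SD, n = 4) in SLMAP3-/- and 46.4% ± 7.11 (SD, n = 4) in WT lines (exact permutation p = 0.743).

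Prickle1 and Prickle2 encode cytoplasmic LIM domain proteins that act with Vangl. Prickle1 (ENSMUSG00000036158.12, chromosome 15 from 93499114 to 93595891, minus strand) had 14.8, 14.6, 14.2 and 19.2 CPM in SLMAP3-/- lines and 12.2, 11.9, 20.9 and 15.4 CPM in WT lines. Prickle2 (ENSMUSG00000030020.13, chromosome 6 from 92370908 to 92706155, minus strand) had 15.7, 11.5, 14.97 and 6.52 CPM and 7.18, 13.8, 20.7 and 19.8 CPM, respectively. For Prickle2 the lowest 2 lines were SLMAP3-/- replicate 4 and WT replicate 1, 1 of each genotype, which were also the 2 lines with the most Vangl1. The log2 fold change was 0.054 ± 0.21 (SE) for Prickle1 and -0.33 ± 0.38 (SE) for Prickle2, whose 95% interval, from 0.439-fold to 1.44-fold, was on the log2 scale the widest after that of Celsr3. Per kilobase, Prickle1 had 3.71 ± 0.760 CPM (SD, n = 8 lines) and Prickle2 1.78 ± 0.673 CPM. Prickle1 was the higher in 8 of 8 lines, by 2.21-fold on average (exact sign-flip permutation p = 0.00781), and by 1.36-fold it lay below Vangl1, in 7 of 8 lines (exact permutation p = 0.0234, or 0.0264 adjusted). Without SLMAP3-/- replicate 1, 2 or 3 or WT replicate 1 or 2 the adjusted p of this last difference was 0.0527. Its log2 ratio was 0.44, and 2.00 with the mean length of the protein-coding transcripts.

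The Celsr genes, which encode the adhesive cadherins of the pathway, were the least abundant members. Celsr1 (ENSMUSG00000016028.11, chromosome 15 from 85898929 to 86033777, minus strand) had 11.3, 7.77, 9.43 and 6.67 CPM in SLMAP3-/- lines and 8.53, 12.2, 5.85 and 6.84 CPM in WT lines. Celsr2 (ENSMUSG00000068740.13, chromosome 3 from 108390851 to 108415552, minus strand) had 2.41, 3.88, 5.38 and 3.43 CPM and 5.00, 2.13, 4.503 and 4.71 CPM. The line with the most Celsr1 in each genotype, SLMAP3-/- replicate 1 and WT replicate 2, had the least Celsr2. This did not hold over the other lines. The correlation of Celsr1 and Celsr2 was r = -0.63 (permutation p = 0.0998) and rho = -0.29 (permutation p = 0.501). Without the 2 lines farthest from the median of Celsr1, r was 0.52. Celsr3 (ENSMUSG00000023473.13, chromosome 9 from 108826320 to 108852969, plus strand) had estimated counts of 9, 33, 38 and 6 in SLMAP3-/- lines and 15, 9, 29 and 26 in WT lines, or at most 0.660 CPM. Its genotypes overlapped over almost the whole range. With so few counts and a pooled standard deviation of 0.95 on the log2 scale between lines of a genotype, a difference would have to be large to be seen. The 95% interval for Celsr3 ran from 0.398-fold to 3.02-fold, that for Celsr1 from 0.690-fold to 1.61-fold and that for Celsr2 from 0.540-fold to 1.58-fold.

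Celsr1 and Celsr3 share the longest stretch of identical coding bases among the Celsr genes, 32 bases in exon 2 of both, shown because the scarce counts of Celsr3 are the ones that reads of a paralog would change most.
Celsr1, exon 2, codon 1325, minus strand, chr15:85978826-85978857: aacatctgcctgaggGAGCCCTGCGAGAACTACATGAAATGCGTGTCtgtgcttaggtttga
Celsr3, exon 2, codon 1373, plus strand, chr9:108832073-108832104: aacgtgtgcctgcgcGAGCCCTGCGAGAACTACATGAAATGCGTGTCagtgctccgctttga
The capitals mark the shared bases of the transcripts, in a coding length of 9102 bases for Celsr1 and 9927 for Celsr3. SLMAP3-/- replicate 1 and WT replicate 2, with the most Celsr1, had 9 counts of Celsr3 each. Whether reads of one paralog were assigned to the other was not tested.

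Per kilobase, Celsr1 had 0.788 ± 0.209 CPM (SD, n = 8 lines), Celsr2 0.371 ± 0.113 and Celsr3 0.0319 ± 0.0192. Celsr1 exceeded Celsr2 by 2.16-fold and Celsr2 exceeded Celsr3 by 13.4-fold, each in 8 of 8 lines (exact sign-flip permutation p = 0.00781 for each). Celsr1 made up 67.4% ± 9.40 (SD, n = 4) of the family in SLMAP3-/- and 63.8% ± 13.8 (SD, n = 4) in WT lines, Celsr2 29.9% ± 8.26 (SD, n = 4) and 33.5% ± 12.5 (SD, n = 4), and Celsr3 2.70% ± 1.99 (SD, n = 4) and 2.73% ± 1.65 (SD, n = 4). The exact permutation p of these differences was 0.571, 0.514 and 0.943. Per kilobase of the transcript with the longest reading frame, the levels fell in the order Dvl1, Dvl3, Dvl2, Vangl2, Vangl1, Prickle1, Prickle2, Celsr1, Celsr2 and Celsr3. Of the 9 pairs of neighbours, Vangl2 with Vangl1 was, with these lengths, the pair that did not differ beyond the spread between lines. The pairs were taken from the order in the same lines. The test therefore measures how steady a ratio was between lines, and not an error in length that all lines share. Dvl2 exceeded Vangl2 by 2.54-fold, or 1.35 on the log2 scale, which was 2.14 with the mean length of the protein-coding transcripts and 2.60 with all exons merged. With all exons merged Vangl2 had 2.125 CPM per kilobase, below Vangl1 (4.55) and Prickle1 (3.54), and came 6th in the order in place of 4th. Prickle2 exceeded Celsr1 by 2.16-fold, or 1.11 on the log2 scale, which was 0.48 (adjusted permutation p = 0.117) with the mean length. Within a genotype the pooled standard deviation on the log2 scale was lowest for the Dishevelled genes and Vangl1, with 0.17 for Dvl1, 0.23 for Dvl2 and 0.19 for Vangl1. It was 0.30 for Prickle1, 0.40 for Celsr1, 0.46 for Vangl2, 0.53 for Celsr2, 0.65 for Prickle2 and 0.95 for Celsr3, and did not follow the order of levels throughout, since Prickle2 varied more than Celsr1 and Celsr2.

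The other genes of the pathway gave 0 calls after adjustment with edgeR, DESeq2 and limma-voom alike, over 6 lists of ligands and receptors, other polarity proteins, downstream effectors, Dishevelled regulators, lysosome and autophagy genes, and Wnt/beta-catenin targets. At an unadjusted p under 0.05 there was 1 gene in edgeR and in limma-voom and 2 in DESeq2. Among all genes, 1.81% of those tested passed in edgeR and 269 of 15461 in limma-voom. In DESeq2, which gave 17292 genes an adjusted p, 551 passed. Nkd1 was in both the list of regulators and the list of targets. Of 12 ligands and receptors, 11 were tested, 5 with a positive and 6 with a negative log2 fold change. The most abundant were Ptk7, a pseudokinase co-receptor, with 296 ± 56.4 CPM (SD, n = 4) in SLMAP3-/- and 307 ± 44.5 CPM (SD, n = 4) in WT lines, and Ryk, with 262 ± 46.2 and 243 ± 22.7 CPM (SD, n = 4 each). Gpc4, a glypican, had the smallest p of this list, with a log2 fold change of 0.29 ± 0.25 (SE). Musk, with at most 4 counts in a line, was not tested.

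Of 11 other polarity proteins, 9 were tested, 5 positive and 4 negative. The giant cadherin genes Fat1 and Fat4 led in CPM, with 742 ± 79.5 and 340 ± 60.7 in SLMAP3-/- and 818 ± 84.4 and 378 ± 160 in WT lines (SD, n = 4 each). Dchs2, a protocadherin of the Fat and Dachsous system, had the smallest p, with 2.48 ± 1.14 CPM (SD, n = 4) in SLMAP3-/- and 4.31 ± 1.89 CPM (SD, n = 4) in WT lines. The genotypes overlapped for Dchs2, whose log2 fold change was -0.79 ± 0.41 (SE). Fat3, with at most 4 counts, and Prickle4, with at most 41, were not tested.

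Of 17 downstream effectors, 16 were tested, 8 in each direction. The GTPase genes Rac1 and Rhoa had 471 ± 19.9 and 464 ± 36.0 CPM in SLMAP3-/- and 464 ± 34.8 and 449 ± 40.2 CPM in WT lines (SD, n = 4 each). Rock1, a kinase activated by RhoA, had 116 ± 9.85 CPM (SD, n = 4) in SLMAP3-/- and 129 ± 5.57 CPM (SD, n = 4) in WT lines, with a log2 fold change of -0.16 ± 0.085 (SE) (exact permutation p = 0.0571).

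Among 26 kinases, ubiquitin enzymes and binding proteins of Dishevelled, 25 were tested, 11 positive and 14 negative. Smurf2, a ubiquitin ligase that targets Prickle1 in PCP, was the 1 gene of the lists with an unadjusted p under 0.05. It had 89.1 ± 15.04 CPM (SD, n = 4) in SLMAP3-/- and 116 ± 19.4 CPM (SD, n = 4) in WT lines, or -0.38 ± 0.16 (SE) on the log2 scale (unadjusted p = 0.0432, adjusted p = 1.00, edgeR). Its genotypes overlapped (exact permutation p = 0.0857), and 0 genes of this list had an unadjusted p under 0.05 with the level of Y-linked genes as a covariate or without SLMAP3-/- replicate 1 or WT replicate 1, 2 or 4. Nedd4 and Huwe1, both ubiquitin ligases, led the list with 2205 ± 342 and 447 ± 59.2 CPM in SLMAP3-/- and 2263 ± 156 and 476 ± 76.6 CPM in WT lines (SD, n = 4 each).

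The study reported that NH4Cl, an inhibitor of lysosomal degradation, restored DVL3 protein in MEFs lacking SLMAP3. For that reason 12 lysosome and autophagy genes were tested, 4 positive and 8 negative. Their transcript levels do not measure the degradation of DVL3 protein. Lamp1, a lysosomal membrane glycoprotein, had 1017 ± 86.2 CPM (SD, n = 4) in SLMAP3-/- and 1026 ± 94.4 CPM (SD, n = 4) in WT lines. The protease gene Ctsd had 704 ± 146 and 711 ± 81.0 CPM (SD, n = 4 each), and Tfeb, a transcription factor of lysosomal genes, had the smallest p with a log2 fold change of -0.18 ± 0.12 (SE). Of 10 Wnt/beta-catenin targets, 9 were tested, 6 positive and 3 negative. Ccnd1, which encodes cyclin D1, led both in CPM and in p, with 93.6 ± 61.4 CPM (SD, n = 4) in SLMAP3-/- and 147 ± 50.4 CPM (SD, n = 4) in WT lines and a log2 fold change of -0.65 ± 0.54 (SE). Znrf3, a ubiquitin ligase for Frizzled, had 15.2 ± 1.74 and 15.1 ± 2.56 CPM (SD, n = 4 each). The medians of the 6 lists lay between -0.024 and 0.076 on the log2 scale, and the median of the Wnt/beta-catenin targets ranged from -0.12 without WT replicate 2 to 0.30 without WT replicate 4.

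**Figure D5:**
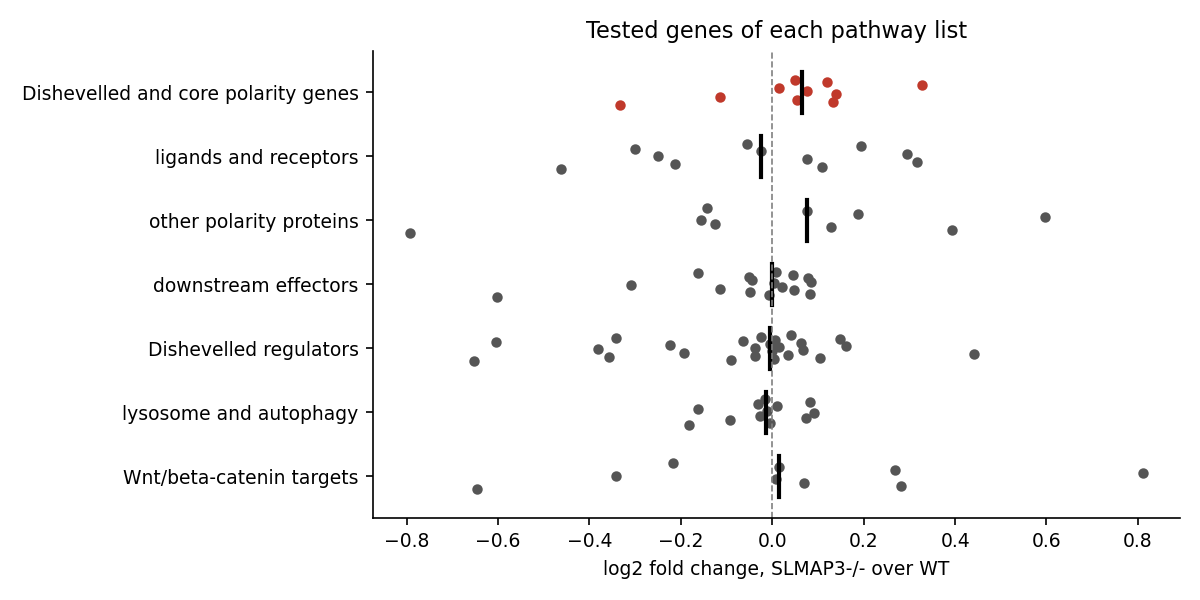
Log2 fold change of SLMAP3-/- over WT (horizontal axis) of each tested gene in 7 lists, with the 10 Dishevelled and core polarity genes in red and a black bar at each median. Genes of each list lie on both sides of 0, and the 7 medians lie between -0.024 and 0.076.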

How the data were processed

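Estimated counts per gene came from the authors, who ran Salmon on GRCm38 transcripts (GENCODE M25). The deposited counts were summed per gene and length-scaled by the authors, with no normalization across lines. The authors' table of their DESeq2 comparison holds fold changes and p-values and was not used. Versions of Salmon and DESeq2 are not given in the sources used here. The 8 columns were mapped to lines through the sample descriptions. Replicates are lines from separate embryos.

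Counts were rounded. With edgeR 4.0.16 in R 4.3.3, genes were kept by filterByExpr (minimum count of 10), scaled by TMM and compared between 4 SLMAP3-/- and 4 WT lines by the quasi-likelihood test. P-values were adjusted (Benjamini-Hochberg) over the 15461 genes tested, at a threshold of 0.05. Standard errors were derived from the fold change and the F statistic. Exact permutation tests used log2 CPM with a prior count of 2. Lengths and positions came from GENCODE M21, also GRCm38, in which all 10 gene names were found. Celsr1 has another ID version there. Alternatives were DESeq2 1.42.0, limma-voom (limma 3.58.1), other scaling, filters, rounding, a covariate of Y-linked expression, a replicate block, other lengths and leaving out each line. edgeR, DESeq2 and limma-voom were tested on simulated data first. The depth was 49879059 to 63322486 counts per line. For genes such as Dvl3, with at least 3630 counts, the spread between lines limits precision, and for Celsr3, with 6 to 38, counting error adds to it.

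The members and lists were chosen with earlier results of these data known. The genes named are the 10 members, Slmap, from each list those with an unadjusted p under 0.05 (at most 3, else the smallest p) and the 2 highest in CPM, and the 3 genes most correlated with each Dishevelled gene. Marker genes named, Acadvl and Tas1r3, and the genes named as not tested were chosen after their values were seen. Shared numbers of replicates did not pair the lines.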

Additional observations from a re-analysis of the deposited data

Results flagged for a closer look

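Of 20 groups examined (each member within each genotype), 1 held a line apart from the rest. For Prickle1, SLMAP3-/- replicate 4 had 19.2 CPM against 14.2 to 14.8 CPM in the other SLMAP3-/- lines, with a gap of 0.877 of the whole range of the group, above Dixon's 95% critical value for 4 samples. Chance flags about 1 in 20 groups, so 1 is what chance gives among 20. WT replicate 3, at 20.9 CPM, was higher than this line. Without SLMAP3-/- replicate 4 the log2 fold change of Prickle1 was -0.057 in place of 0.054.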

How the results depend on the processing

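No member passed an adjusted p under 0.05 in any alternative, or under 0.1 in edgeR's own test, and the direction of Dvl3, Vangl1, Vangl2 and Prickle2 was kept in all 16 alternatives. Celsr3 turned to -0.11 with limma-voom and to -0.093 with the replicate block. Celsr3 has no value under a minimum of 10 counts in every line, which it did not meet. Leaving out 1 line at a time, log2 fold changes ranged from -0.057 to 0.11 for Dvl1, -0.11 to 0.10 for Dvl2, 0.10 to 0.20 for Dvl3, 0.033 to 0.20 for Vangl1, 0.12 to 0.52 for Vangl2, -0.069 to 0.32 for Celsr1, -0.34 to 0.051 for Celsr2, -0.24 to 0.43 for Celsr3, -0.057 to 0.25 for Prickle1 and -0.56 to -0.13 for Prickle2, and the number of members with an unadjusted p under 0.05 from 0 to 1 (Dvl3, without SLMAP3-/- replicate 2). Differences in share, in percentage points, ranged from -2.49 to 1.17 for Dvl1, -2.67 to 0.881 for Dvl2, -7.96 to 1.10 for Vangl1, -1.01 to 10.3 for Celsr1, -9.76 to 0.480 for Celsr2 and -0.793 to 0.636 for Celsr3, and log2 ratios per kilobase from 0.37 to 0.55 for Vangl1 to Prickle1 (past the threshold without 3 of the lines and short of it without the other 5, where 7 lines also raise the smallest possible p) and 0.19 to 0.42 for Vangl2 to Vangl1. With the mean length of the protein-coding transcripts the log2 ratio was 0.11 for Dvl1 to Dvl3, 2.14 for Dvl2 to Vangl2, 2.00 for Vangl1 to Prickle1, -1.73 for Vangl2 to Vangl1 and 0.48 for Prickle2 to Celsr1; with all exons merged it was -0.019 for Dvl3 to Dvl2 and -1.15 for Vangl2 to Vangl1. The lengths differ by construction, and Salmon's own lengths were not used here.

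The replicate numbers do not pair the lines: correlations of deviations between same-numbered lines were -0.16, 0.058, 0.19 and -0.0032, and replicate 3 alone correlated best with its own number. In the sample descriptions SLMAP3-/- replicate 3 and WT replicate 4 share a line number, and a common origin of these lines was not tested. The block left 0 genes past the threshold in place of 1, and 0 members. Slmap kept its log2 fold change of -1.84 (SE 0.12, unadjusted p = 1.48e-05, adjusted p = 0.171), and the unadjusted count among Dishevelled regulators was 2 in place of 1. Among all genes, DESeq2 gave 11 with an adjusted and 551 with an unadjusted p under 0.05, and edgeR without a filter 790 with an unadjusted one, against 1 and 280 in edgeR as reported. None of the 11 was a member.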
